A study of Mus musculus with 9 samples.

Results

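The alpha and beta tubulin genes were followed in tumour cell preparations enriched with beads against CD8a, taken from young, aged and diet-restricted aged mice. The set comprised the 10 genes named Tuba1a, Tuba1b, Tuba1c, Tuba4a, Tubb2a, Tubb2b, Tubb3, Tubb4b, Tubb5 and Tubb6 out of 25361 genes in the deposited table, chosen by name as 4 alpha and 6 beta tubulins. The family was proposed with the lower Tuba1b level of the aged mice fed ad libitum already known. The values of the comparison between the age groups are therefore given as a description, with no test of any member. The comparison of restricted with young mice uses the same young libraries, so its tests are not independent of the Tuba1b difference. All mice were wild-type C57BL/6N males that carried tumours of MC38, a mouse colon carcinoma line, grown under the skin and taken on day 21. Of the 3 groups, each with 3 libraries, the young ad libitum mice were 5 months old and ate freely. The aged ad libitum mice were 20 months old and also ate freely, and the aged restricted mice, of the same 20 months, were given 70% of what freely fed mice ate. No young restricted group was analysed here, so a diet effect could be compared only at 20 months. The labels describe the 3 libraries of a group as independent biological replicates and do not say whether a library came from 1 mouse or several.

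Alpha and beta tubulin form the heterodimer from which microtubules are built, the hollow filaments that carry cargo, shape cells and form the mitotic spindle. Each subunit is made by several genes, called isotypes, whose proteins are much alike. Cells also watch the amount of free dimer: when it is in excess, the factor TTC5 binds the first amino acids of a tubulin chain as it leaves the ribosome, and the tubulin mRNA is degraded, which is called tubulin autoregulation. In T cells, microtubules bring the centrosome and the cytotoxic granules to the contact with a target cell.

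The start of the coding sequence is shown for 9 of the 10 genes, all but Tubb6, because it encodes the stretch that this feedback reads, and because it shows how closely the genes resemble each other. The first 30 coding bases are given 5′ to 3′ from GENCODE M21 transcripts (GRCm38), with the first 4 codons in capitals.
Tuba1a: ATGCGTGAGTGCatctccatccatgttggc
Tuba1b: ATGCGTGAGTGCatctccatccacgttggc
Tuba1c: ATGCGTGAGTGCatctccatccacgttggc
Tuba4a: ATGCGCGAGTGCatttcagtccatgtgggg
Tubb2a: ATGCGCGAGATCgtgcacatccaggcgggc
Tubb2b: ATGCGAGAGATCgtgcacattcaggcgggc
Tubb3: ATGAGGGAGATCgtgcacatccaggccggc
Tubb4b: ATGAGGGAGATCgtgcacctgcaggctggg
Tubb5: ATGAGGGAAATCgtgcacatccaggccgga
Counted from 1 at the A of the start codon, with the Tuba1b base first, Tuba1a differed from Tuba1b only by C24T in this stretch, and Tuba1c did not differ from it. Tuba4a differed from Tuba1b at 7 bases, among them T6C within the first 4 codons. Among the beta genes, with the Tubb5 base first, Tubb3 differed from Tubb5 by A9G and A30C. Tubb2a and Tubb4b differed from Tubb5 at 5 bases each and Tubb2b at 6. Within the first 4 codons, the differences among the alpha genes, and those among the beta genes shown, leave the encoded amino acids unchanged.

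This likeness limits what a read can tell. QuantSeq, the library method, reads the 3′ end of polyadenylated transcripts, here in single reads of 75 bp. Of the 426 windows of 75 bases in the last 500 bases of each transcript, 53.8% in Tuba1a, 61.5% in Tuba1b and 66.2% in Tuba1c occurred exactly in a transcript of another annotated gene. Tuba1b shared 207 of these windows (48.6%) with Tuba1a and 165 (38.7%) with Tuba1c. Annotated gene models such as Gm17383 and Gm3226 held shared windows as well, but they are not among the deposited counts. Among the beta genes, Tubb2a shared 33.1% of the windows, mostly with Tubb2b. Tubb4b shared 19.7% with Gm16165, Tubb4b-ps1 and Tubb4b-ps2, which are not among the deposited counts either. Tuba4a, Tubb2b, Tubb3, Tubb5 and Tubb6 shared none, so the windows of Tubb2a match Tubb2b outside the last 500 bases of Tubb2b. How the authors counted reads that match several genes is not given in the sources used here. The split between Tuba1a, Tuba1b and Tuba1c, and that between Tubb2a and Tubb2b, is therefore uncertain, and sums are given beside the single genes.

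**Figure D1:**
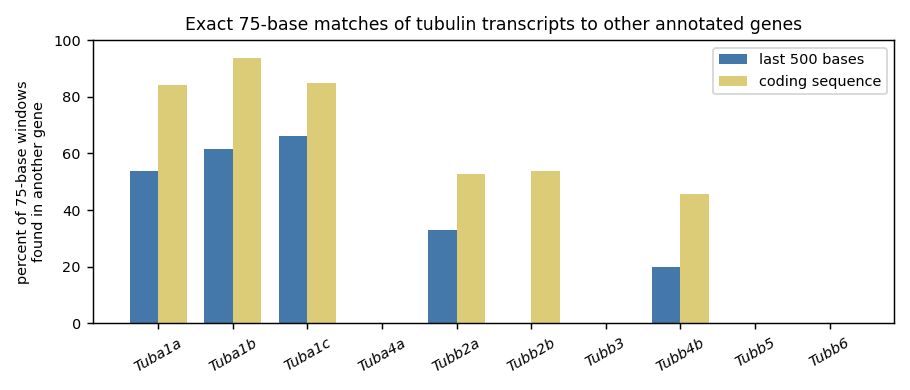
Percentage of 75-base windows of each tubulin transcript that occur exactly in a transcript of another annotated gene, for the last 500 bases (blue) and the coding sequence (yellow). The coding sequences of Tuba1a, Tuba1b and Tuba1c share 84.4%, 93.8% and 84.9% of their windows, while Tuba4a, Tubb3, Tubb5 and Tubb6 share none.

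The genes lie on 7 chromosomes in the coordinates of the deposited table. The submitters' processing notes name GRCm38, but of 25268 genes found by identifier in GENCODE M21 of that build only 536 had the same start and end. The members have the same lengths in both but lie at shifted positions, so their coordinates are not those of GRCm38. Which build they follow was not established. On chromosome 15, Tuba1b (98829306 to 98832446, minus strand), Tuba1a (98847718 to 98851584, minus strand) and Tuba1c (98927772 to 98935991, plus strand) lie together, with gaps of 15.3 kb and 76.2 kb. Tubb2a (34258257 to 34261990) and Tubb2b (34310731 to 34314449) lie 48.7 kb apart on the minus strand of chromosome 13. The other members lie singly: Tuba4a on chromosome 1 (75190872 to 75196509, minus strand), Tubb4b on chromosome 2 (25112172 to 25114714, minus strand), Tubb3 on chromosome 8 (124138163 to 124148754, plus strand), Tubb5 on chromosome 17 (36144813 to 36149198, minus strand) and Tubb6 on chromosome 18 (67523787 to 67535819, plus strand). The identifiers in the table are ENSMUSG00000023004 for Tuba1b, ENSMUSG00000072235 for Tuba1a, ENSMUSG00000043091 for Tuba1c and ENSMUSG00000001525 for Tubb5. The read-sharing genes of chromosome 15 are thus neighbours as well as close copies.

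The libraries held 810662 to 1258575 counts, and the mitochondrially encoded genes took 23.53% to 45.67% of them. Levels are given as CPM, the counts a gene would have in a library of 1e6 counts, after TMM, a normalization that corrects for a few genes taking many reads; 1 count was worth 0.656 to 1.34 CPM. The 13 markers of CD8 T cells summed to 151 to 832 CPM and Cd8a averaged 19.3 ± 22.1 CPM in the young, 34.9 ± 27.6 in the aged ad libitum and 44.2 ± 9.63 in the restricted libraries, whereas the 15 macrophage markers summed to 2684.5 to 12436.5 CPM, so the libraries were not of CD8 T cells alone. Markers of tumour epithelium (at most 18.4 CPM in sum), neurons and Schwann cells (at most 31.5 CPM) and B cells (at most 7.38 CPM) were low in every library. The tumour epithelial sum was still higher in the restricted libraries (12.5 to 18.4 CPM) than in the young (0 to 4.13 CPM) and aged ad libitum ones (1.02 to 9.39 CPM). How much RNA of MC38 cells the libraries held was not tested. In such bulk samples, fewer cells of a type and less RNA per cell cannot be told apart.

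Tuba1b, the most abundant isotype here and a widely expressed alpha tubulin, took the largest share of the alpha tubulin counts in every library. It stood at 1558.3, 1548.7 and 1554.4 CPM in the young libraries, at 880, 628 and 798 CPM in the aged ad libitum libraries, and at 993, 711 and 1072.5 CPM in the aged restricted libraries. Every library of both aged groups lay below every young library, while the aged groups overlapped each other. The mean was 1553.8 ± 4.81 CPM in the young, 769 ± 129 in the aged ad libitum and 925 ± 190 in the aged restricted group (SD, n = 3 each), so that the aged ad libitum mean was 0.495 of the young mean. With 1757 to 1923 counts in the young libraries, counting error alone exceeds the young SD, so that SD understates the spread. The fitted log2 difference was -1.01 ± 0.17 (SE) for aged against young ad libitum and -0.75 ± 0.17 for aged restricted against young. The latter comparison uses the same young libraries as the former, so it is given without a test as well. Between the aged groups, Tuba1b differed by 0.27 ± 0.17 on the log2 scale (adjusted p = 0.602, edgeR's quasi-likelihood test with Benjamini-Hochberg adjustment over 9009 genes) and was not called.

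Tuba1a, an alpha isotype best known from developing neurons, was lowest under restriction. Its levels were 332, 286 and 363 CPM in the young, 192, 227 and 156 CPM in the aged ad libitum, and 156, 131 and 128 CPM in the aged restricted libraries. The 3 groups did not overlap on the unrounded values, though the highest restricted library and the lowest aged ad libitum library were both close to 156 CPM. The means were 327 ± 38.7, 192 ± 35.2 and 138 ± 15.4 CPM. Against the young group, Tuba1a in the restricted group fell by 1.24 ± 0.23 on the log2 scale, to 0.423 of the young mean (edgeR adjusted p = 0.00198), and was lower in 3 of 3 libraries. This call held under every alternative setting tried, with adjusted p between 2.07e-05 and 0.0228. The call and these alternatives rest on the same young libraries as the Tuba1b difference, and Tuba1a can share reads with Tuba1b. The alternatives therefore lend the call no separate support. The call is therefore not independent of the difference that prompted the choice of the family. The steps on either side were -0.77 ± 0.23 for age and -0.47 ± 0.23 for restricted against aged ad libitum (edgeR adjusted p = 0.426 for the latter). The 12 markers of neurons and Schwann cells summed to at most 9.66, 31.5 and 4.43 CPM in the young, aged ad libitum and restricted libraries. Of these, 4 (Elavl4, Snap25, Nefm and Sox10) had no count in any library, and the others had some. The part of such cells in the Tuba1a level was not tested.

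Tuba1c, another widely expressed alpha isotype, moved less. It stood at 513, 519 and 490 CPM in the young, 489, 428 and 278 CPM in the aged ad libitum, and 359, 429 and 398 CPM in the restricted libraries. Both aged groups lay below the young one without overlap, although aged ad libitum replicate 1 missed the lowest young library by little. The fitted differences were -0.35 ± 0.20 for age, -0.01 ± 0.20 for restricted against aged ad libitum (edgeR adjusted p = 0.992) and -0.36 ± 0.20 for restricted against young (edgeR adjusted p = 0.537). The sign of the middle value turned to 0.01 with library totals alone, to 0.02 with TMM without the mitochondrially encoded genes and to 0.00 with upper quartile scaling, so no direction is given for it.

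Tuba4a, an alpha isotype that is abundant in platelets and muscle, shared no window with the other genes. Its levels were 109, 99.1 and 108 CPM in the young, 91.6, 48.3 and 73.8 CPM in the aged ad libitum, and 69.8, 102 and 92.5 CPM in the restricted libraries. All aged ad libitum libraries lay below the young ones, and the restricted libraries overlapped both groups. The fitted differences were -0.56 ± 0.30 for age, 0.31 ± 0.30 for restricted against aged ad libitum (edgeR adjusted p = 0.776) and -0.25 ± 0.30 for restricted against young (edgeR adjusted p = 0.845).

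**Figure D2:**
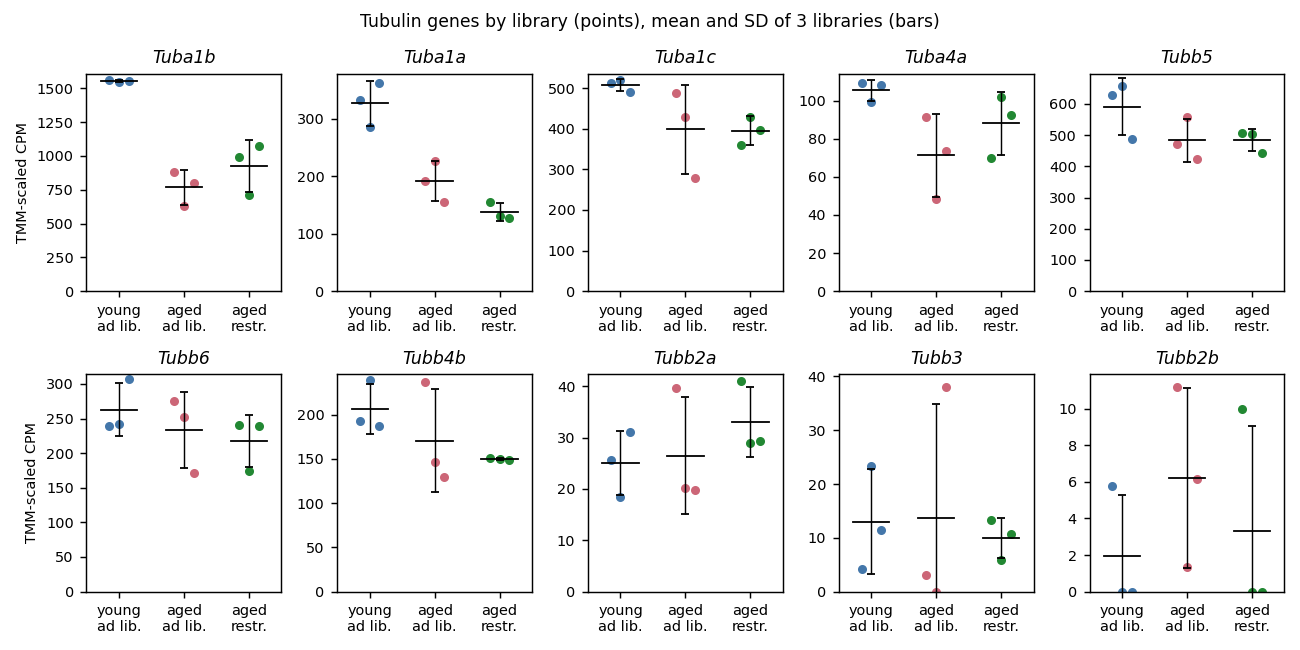
TMM-scaled CPM of the 10 tubulin genes in each library (points), with the mean (line) and SD (bars) of 3 libraries a group; each panel has its own axis from 0. Tuba1b, Tuba1a and Tuba1c lie lower in every library of both aged groups than in every young library. The 6 beta genes overlap between the young and aged ad libitum groups, and Tubb4b lies below the young range in the restricted libraries.

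Among the beta genes, Tubb5, a widely expressed isotype, was the highest at 630, 657 and 488 CPM in the young, 471, 559 and 423 CPM in the aged ad libitum, and 507, 503 and 444 CPM in the restricted libraries. The 3 groups overlapped, with means of 592 ± 90.6, 484 ± 69.1 and 485 ± 35.5 CPM. The fitted log2 differences of Tubb5 were -0.29 ± 0.19 for age, 0.00 ± 0.19 between the aged groups (edgeR adjusted p = 0.999) and -0.29 ± 0.19 for restricted against young (edgeR adjusted p = 0.609).

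Tubb6, a divergent beta isotype, stood at 239, 242 and 307 CPM in the young, 276, 252 and 172 CPM in the aged ad libitum, and 240, 174 and 239 CPM in the restricted libraries. Its groups overlapped in all 3 comparisons. Tubb4b, a widely expressed beta isotype that is also built into cilia, was at 193, 239 and 187 CPM in the young, 237, 146 and 129 CPM in the aged ad libitum, and 151, 150 and 149 CPM in the restricted libraries. The restricted libraries had 150 ± 1.11 CPM, below every young library and inside the wide aged ad libitum range. With 136 to 229 counts in these libraries, counting error alone exceeds that SD, which thus understates the spread. The Tubb4b difference of restricted from young mice was -0.46 ± 0.25 and did not pass the test (edgeR adjusted p = 0.5).

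The remaining beta genes had low counts. Tubb2a, a beta isotype best known from brain, had 18.5 to 31.0 CPM in the young, 19.7 to 39.7 CPM in the aged ad libitum, and 28.9 to 41.0 CPM in the restricted libraries, with overlap throughout. Tubb3, the beta isotype used as a neuronal marker, had 5, 29 and 13 counts in the young, 3, 0 and 31 counts in the aged ad libitum, and 12, 9 and 12 counts in the restricted libraries. Its spread within the aged ad libitum group covered the whole range of the other groups, and the library with 0 counts allows up to 4.02 CPM (3 counts). Without aged ad libitum replicate 3, the log2 difference of Tubb3 for age moved from 0.07 to -2.91, and it also turned negative without young replicate 1 (-0.36) or young replicate 3 (-0.017), so no direction is given for it. Tubb2b, a close copy of Tubb2a, had 33 counts in all 9 libraries and was not tested; 4 libraries held 0 counts, which allows up to 1.97 to 2.67 CPM in each.

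The isotypes kept much the same order in each group. Since 3′ counts do not scale with transcript length, the CPM of different genes can be set side by side without a length correction, apart from the reads they share. Tuba1b was highest in all 9 libraries, followed by Tubb5 and Tuba1c, which overlapped in the young and aged ad libitum groups. Tuba1a, Tubb6 and Tubb4b overlapped as neighbours in the young group and again in the aged ad libitum group. Under restriction Tuba1a was the lowest of these genes by its mean, where it still overlapped Tubb4b, and Tubb6 lay above both. Tuba4a, Tubb2a, Tubb3 and Tubb2b came last in that order in every group by their means.

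Sums do not depend on how reads were split among the members, though reads given to other copies or discarded as ambiguous would be missing from them. The alpha genes together gave 2512.2, 2452.3 and 2515.1 CPM in the young, 1653.2, 1330.2 and 1305.8 CPM in the aged ad libitum, and 1577.8, 1373.3 and 1691.5 CPM in the restricted libraries. All libraries of both aged groups lay below the young ones and the aged groups overlapped. The log2 difference of the alpha sum was -0.82 ± 0.15 (SE) for age, 0.12 ± 0.14 for restricted against aged ad libitum and -0.70 ± 0.14 for restricted against young. The beta sum was 1097.0, 1180.6 and 1024.4 CPM in the young, 1037.7, 979 and 788 CPM in the aged ad libitum, and 962, 862 and 872 CPM in the restricted libraries. Here the young and aged ad libitum groups overlapped, and only the restricted libraries all lay below the young ones. The log2 differences of the beta sum were -0.25 ± 0.16, -0.05 ± 0.16 and -0.30 ± 0.16 in the same order. No p is given for sums, since the genes in them were chosen with results known. Tuba1b, which prompted that choice, is the largest part of the alpha sum, so the alpha sum is not independent of the Tuba1b difference.

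**Figure D3:**
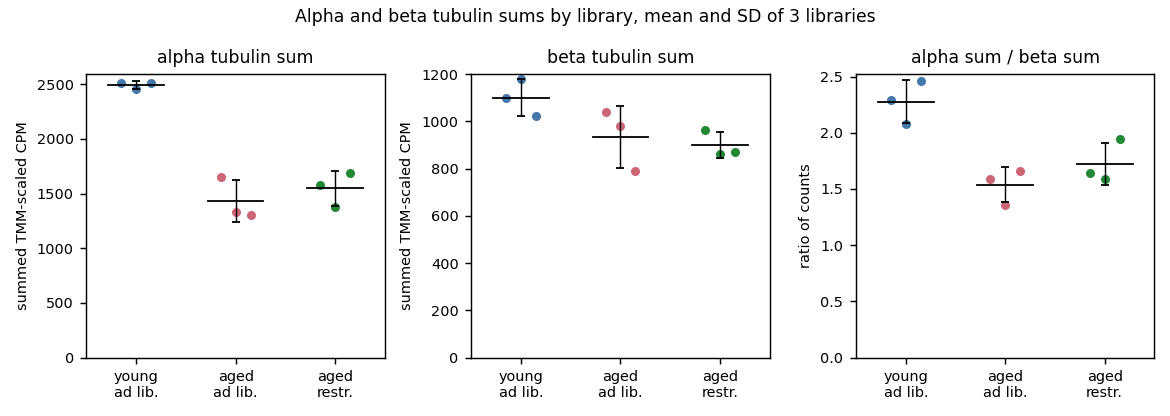
Summed TMM-scaled CPM of the 4 alpha and of the 6 beta tubulin genes, and the ratio of alpha to beta counts, for each library (points), with the mean (line) and SD (bars) of 3 libraries a group; axes start at 0. The alpha sum averages 2493.2 CPM in the young, 1429.7 CPM in the aged ad libitum and 1547.6 CPM in the restricted group, against 1100.7, 935 and 899 CPM for the beta sum.

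The balance of the subunits' transcripts differed accordingly. Alpha counts were 2.28 ± 0.19 times the beta counts in the young libraries (2.08 to 2.46), 1.54 ± 0.157 times in the aged ad libitum libraries (1.36 to 1.66) and 1.72 ± 0.189 times in the restricted libraries (1.59 to 1.94). Both aged groups lay below the young range. This ratio is taken within a library and so does not depend on the scaling. Tuba1b, whose difference prompted the choice of the family, took the largest share of the alpha counts. The ratio is therefore not independent of that difference, and it is a description from which nothing is read. Alpha and beta counts together made up 0.351% ± 0.0189 of all counts in the young, 0.237% ± 0.0468 in the aged ad libitum and 0.244% ± 0.0312 in the restricted libraries.

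Within the alpha counts, Tuba1b took 62.0%, 63.2% and 61.8% in the young libraries. In the aged ad libitum libraries it took 53.2% (95% exact binomial interval 50.8% to 55.7%), 47.2% (44.0% to 50.3%) and 61.1% (58.1% to 64.1%). In the restricted libraries the share was 62.9%, 51.7% and 63.4%. The shares of the aged libraries thus spread far more than their counting intervals, which cover counting error only, while the young ones lay within a narrow range. The Tuba1a share was 13.1% ± 1.35 in the young, 13.5% ± 3.01 in the aged ad libitum and 9.01% ± 1.26 in the restricted libraries, where it reached at most 9.89%. Tubb5 held 53.6% ± 5.18, 52.1% ± 6.02 and 54.0% ± 3.92 of the beta counts in the 3 groups, a difference smaller than the spread between libraries.

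**Figure D4:**
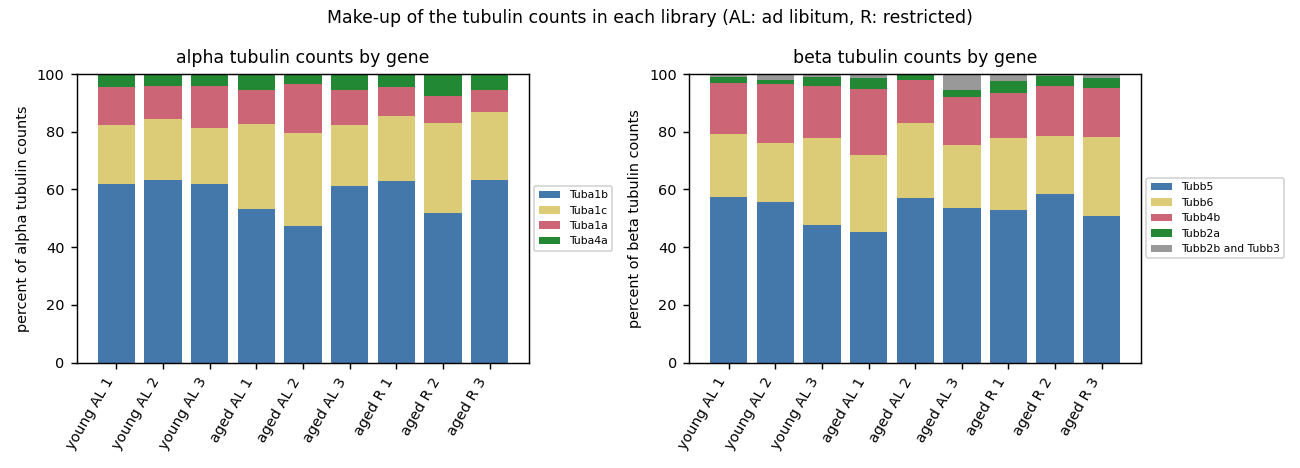
Share of each gene in the alpha tubulin counts (left) and beta tubulin counts (right) of every library, as percent stacked to 100; AL is ad libitum and R is restricted. Tuba1b takes 61.8% to 63.2% of the alpha counts in the young libraries and 47.2% to 63.4% in the aged ones, and Tubb5 holds 52.1% to 54.0% of the beta counts on average in each group.

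Across the 9 members that passed the filter on low counts, which were all 4 alpha genes and 5 of the 6 beta genes, 1 lay past the edgeR threshold as lower in the aged ad libitum group than in the young one. It was Tuba1b, the gene whose difference prompted the choice of the family, so this count is a description and nothing is read from it. Of all 9009 genes tested, 0.289% were called in that comparison in either direction and 0.144% as lower. Of the 9 members, 7 had a lower fitted level with age, as had 50.1% of all genes. The median log2 difference for age was -0.66 over the alpha genes and -0.17 over the beta genes, beside -0.001 over all genes. Between restricted and aged ad libitum mice no member was called by edgeR, none had an unadjusted p under 0.05 and none was called by DESeq2 (0 of 9 in each case), against 0.944% of all genes called by edgeR (0.255% lower and 0.688% higher). The fitted level was higher in 4 members and lower in 5, with a median of -0.01, where 50% of all genes were lower. In restricted against young mice, Tuba1a and Tuba1b lay past the threshold as lower, which makes 2 members. Both values rest on the young libraries that prompted the choice, and Tuba1a can share reads with Tuba1b. This count is therefore a description as well, and the Tuba1b value is not counted as a test. Of all genes, 0.833% were called lower and 1.94% in either direction (1.11% higher). The fitted level was lower in 8 of 9 members, beside 48.9% of all genes, and the median was -0.36 beside 0.016 over all genes. The 2 comparisons with the young group share its 3 libraries, so their values are not independent of each other. The counts of lower members and the medians in these 2 comparisons include Tuba1b and genes that can share its reads. They are a description as well, and nothing is read from them. The number of members past the threshold was not stable: for age it was 0 without young replicate 2, without aged ad libitum replicate 3 or with library totals alone as the scaling, and for restricted against young mice it was 1, Tuba1a, without any 1 of the 3 young replicates or with library totals.

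**Figure D5:**
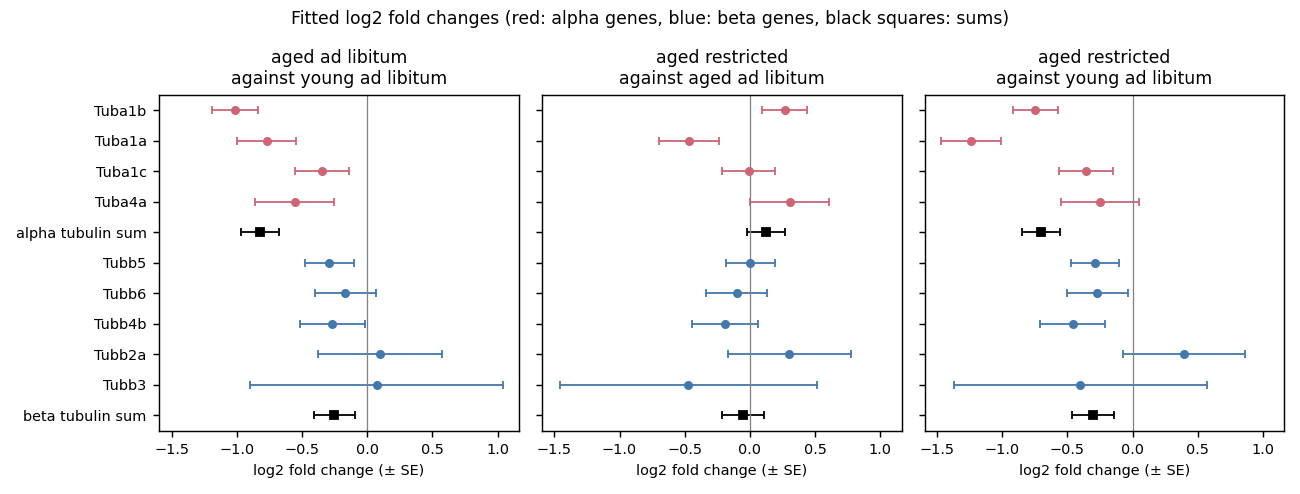
Fitted log2 differences with their standard errors for the 9 tested tubulin genes and for the alpha and beta sums (black squares) in the 3 comparisons; red marks alpha and blue marks beta genes, and 0 means no difference. In aged against young ad libitum mice the alpha genes run from -1.01 to -0.35 and the beta genes from -0.29 to 0.09.

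In the count of genes whose groups did not overlap, Tuba1a, Tuba1b, Tuba1c and Tuba4a (4 of 9 members) were lower in all aged ad libitum libraries, where 8.58% of all tested genes were so. Restricted against young mice likewise gave 4 members, namely Tuba1a, Tuba1b, Tuba1c and Tubb4b, where 9.26% of all tested genes were lower without overlap. Both counts include Tuba1b, which prompted the choice, and Tuba1a and Tuba1c, which can share its reads. They are a description and nothing is read from them. Between the aged groups it was Tuba1a alone (1 of 9), beside 8.47% of all tested genes. No member was higher without overlap in any of these comparisons, where 7.4%, 9.82% and 9.26% of all tested genes were so in the order age, restricted against young, and restricted against aged ad libitum. Marker levels of several cell types varied with the groups at the same time. The CD8 T cell markers summed to 151 to 420 CPM in the young and 225 to 631 CPM in the aged ad libitum libraries. In the restricted libraries they summed to 395 to 832 CPM, and all groups overlapped. Their fitted level was higher in 11 of 13 for age and in 13 of 13 for restricted against young, with 0 called by edgeR. The summed macrophage markers were at 4440.9 to 4652.5 CPM in the young, 2684.5 to 6062.5 CPM in the aged ad libitum and 7333.8 to 12436.5 CPM in the restricted libraries. In the same order, keratinocyte markers summed to 6.44 to 10.7, 45.6 to 109 and 192 to 502 CPM, skeletal muscle markers to 4.13 to 16.1, 15.3 to 56.6 and 62.3 to 345 CPM, and endothelial markers to 83.0 to 148, 283 to 690 and 78.7 to 332 CPM. Keratinocyte markers were thus above the young range in both aged groups and highest under restriction, as were red blood cell markers (0 to 7.44, 45.5 to 88.5 and 137 to 471 CPM) and neutrophil markers (3.54 to 6.61, 9.39 to 36.9 and 46.6 to 117 CPM). The fibroblast sum overlapped in all groups (1305.4 to 2448.7 CPM), with Fap at 0. The part of these cells in the tubulin differences was not tested.

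Since spindle building takes tubulin, 30 proliferation genes were counted as well. Their sum was 2178.9 to 2701.6 CPM in the young, 1864.8 to 2018.9 CPM in the aged ad libitum and 1786.7 to 2106.9 CPM in the restricted libraries, so both aged groups lay below the young one. For age, 24 of the 30 had a lower fitted level (median -0.33) and none was called by edgeR, with 3 at an unadjusted p under 0.05 and 1, Cks1b, called by DESeq2. Cks1b, a small partner of the cyclin-dependent kinases, was at 160 ± 44.6 CPM in the young and 68.0 ± 20.8 CPM in the aged ad libitum group (edgeR adjusted p = 0.0666). Mki67, a marker of cycling cells chosen for mention after its values were seen, had 129 ± 17.4, 154 ± 6.7 and 112 ± 15.1 CPM, in the order young, aged ad libitum and restricted. The part of proliferation in the tubulin differences was not tested.

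The genes that fold, nucleate, modify, bind and move along tubulin were followed, with the other tubulin genes, in lists of 121 genes, of which 90 were tested. None was called for age by edgeR or DESeq2, with 5 at an unadjusted p under 0.05, and 40 were higher and 50 lower. Folding of new tubulin begins with prefoldin and the CCT chaperonin, a ring of related subunits. Of these 14 genes, 12 had a lower fitted level in aged than in young ad libitum mice (median -0.21) and 13 a higher one in restricted than in aged ad libitum mice (median 0.17), and none was called by edgeR or DESeq2 in either comparison; at an unadjusted p under 0.05 there were 0 and 2. Cct3, a chaperonin subunit, was at 225 ± 24.6, 177 ± 46.7 and 238 ± 41.9 CPM in the young, the aged ad libitum and the restricted group. Pfdn5, a prefoldin subunit, was at 88.6 ± 32.5, 86.4 ± 3.22 and 135 ± 22.9 CPM (edgeR adjusted p = 0.381 for restricted against aged ad libitum).

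Of the genes of tubulin autoregulation, 3 of 4 were tested and none was called in any comparison by edgeR or DESeq2; 1 reached an unadjusted p under 0.05. That was Cnot1, the scaffold of the CCR4-NOT deadenylase that removes the tubulin mRNA, at 21.3 ± 7.31, 31.9 ± 7.82 and 51.1 ± 7.81 CPM, for which edgeR gave an adjusted p = 0.165 in restricted against young mice. Ttc5, which encodes the factor that reads the nascent chain, had 28 counts in all and was not tested. The cofactors that join alpha to beta tubulin (6 tested) had medians of 0.05, -0.15 and -0.34 in the 3 comparisons, with 0 called by edgeR or DESeq2 and 0 at an unadjusted p under 0.05. Tbcb, a cofactor that binds alpha tubulin, was at 47.8 ± 11.5, 51.5 ± 18.9 and 34.9 ± 10.4 CPM (edgeR adjusted p = 0.642 between the aged groups).

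The enzymes that modify tubulin, such as the ligases that add glutamate or glycine chains, held 12 tested genes of 19, with medians of -0.08 for age, 0.20 between the aged groups and -0.05 for restricted against young. None was called by edgeR or DESeq2, and 2, Ttll3 and Hdac6, had an unadjusted p under 0.05, both between the aged groups. Ttll3, a glycine ligase, was at 11.4 ± 9.38, 26.0 ± 3.93 and 7.01 ± 4.63 CPM (edgeR adjusted p = 0.327), and Hdac6, a tubulin deacetylase, at 14.6 ± 8.03, 23.6 ± 15.8 and 7.1 ± 6.03 CPM (edgeR adjusted p = 0.382). Of the nucleation genes of the gamma tubulin ring and the augmin complex, 15 of 18 were tested and none was called by edgeR or DESeq2, with 2, 0 and 2 at an unadjusted p under 0.05 in the 3 comparisons. Haus6, an augmin subunit, was at 9.84 ± 6.99, 30.8 ± 23.5 and 12.3 ± 2.98 CPM (edgeR adjusted p = 0.404 for age).

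Of the 15 tested genes of microtubule-binding proteins, 10 had a lower fitted level in restricted than in aged ad libitum mice (median -0.32), and none was called by edgeR or DESeq2, with 3 at an unadjusted p under 0.05. Mapre2, which encodes a plus-end binding protein, was at 25.6 ± 13.5, 14.4 ± 1.97 and 40.5 ± 17.6 CPM (edgeR adjusted p = 0.234 between the aged groups). Dctn1, the large subunit of the dynein partner dynactin, was at 139 ± 28.1, 146 ± 24.5 and 97.6 ± 23.6 CPM (edgeR adjusted p = 0.402 between the aged groups). Among the stathmins and severing genes (7 tested), Stmn1, which encodes stathmin, a protein that binds free dimers and destabilizes microtubules, was at 93.1 ± 21.3, 63.4 ± 9.09 and 69.2 ± 8.16 CPM (edgeR adjusted p = 0.567 for age). Camsap2, which holds microtubule minus ends, was at 25.8 ± 6.72, 59.7 ± 18 and 39.2 ± 3.84 CPM, higher in 3 of 3 aged ad libitum libraries than in any young one, but did not pass the test (edgeR adjusted p = 0.223). Of the 17 tested motor genes, 11 had a lower fitted level in each comparison. Dynll2, a dynein light chain, was at 305 ± 22.4, 250 ± 56.9 and 172 ± 46.8 CPM (edgeR adjusted p = 0.0748 for restricted against young). The gene called in these lists was Dynlt1b, another light chain of the dynein motor, at 44.4 ± 2.37, 40.0 ± 17.9 and 118 ± 7.51 CPM. It rose by 1.56 ± 0.35 on the log2 scale in restricted against aged ad libitum mice (edgeR adjusted p = 0.022) and by 1.40 ± 0.34 against young mice (edgeR adjusted p = 0.0229). Dynlt1b has near-identical copies in the table, so its counts are uncertain, and the sum of Dynlt1a, Dynlt1b, Dynlt1c and Dynlt1f was 97.7 ± 9.76, 109 ± 19.9 and 197 ± 41.6 CPM. DESeq2 called the same gene in both comparisons.

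Other tubulin genes added little. Tuba3a, Tuba3b, Tubal3, Tubb1 and Tubb4a had 0 counts in all 9 libraries, which allows up to 1.97 to 4.02 CPM in a library. Tuba8, Tubd1 and Tubg2 had 6, 13 and 5 counts in all. Tubg1, the gamma tubulin that starts new microtubules, was at 41.1 ± 13.5, 45.3 ± 5.77 and 28.7 ± 16.2 CPM, and Tube1, the epsilon tubulin of centrioles, at 9.85 ± 2.57, 6.18 ± 5.35 and 3.9 ± 1.07 CPM. Neither was called by edgeR in any comparison, with adjusted p of at least 0.635 for Tubg1 and 0.752 for Tube1.

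The patterns most like those of the 3 most abundant members were sought over the 9 libraries among 2440 genes of at least 50 CPM, by the root mean square difference of centred log2 CPM. For Tuba1b these were Laptm4a (0.186), Max (0.197), the partner of MYC, and Cops9 (0.206), a subunit of the COP9 signalosome. Laptm4a, a lysosomal membrane protein gene, was at 499 ± 44.6, 260 ± 59.8 and 385 ± 90.3 CPM. Of the other members, Tuba4a was the nearest to Tuba1b at 0.348, with 130 of those genes nearer, and Tuba1a stood at 0.405. Tubb5 was most like the tropomyosin gene Tpm1 (0.090), the ribosomal protein gene Rpl27 (0.105) and the chaperonin gene Cct2 (0.108), and Tuba1c most like Rps27l (0.113), Ywhab (0.131) and Rtn3 (0.137). All of these libraries share the scaling and the same 9 samples, so likeness is a description only.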

How the data were processed

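Whole-number counts per gene were deposited by the authors, 1 column per library. The submitters' processing notes name featureCounts, STAR and Trim Galore, and the build GRCm38 (mm10); versions, strand use, molecular identifiers and the treatment of reads with several matches are not given in the sources used here, and PCR copies may count as separate reads. Counts were analysed with edgeR 4.0.16 (R 4.3.3): filterByExpr (minimum count 10) kept 9009 of 25361 genes, TMM scaling was applied, and a one-way quasi-likelihood model was fitted with 6 residual degrees of freedom and an adjusted p threshold of 0.05. DESeq2 1.42.0, other scalings, no filter, a replicate block and leave-one-out fits were alternatives. The biological coefficient of variation was 40.5%. The members and lists were chosen with earlier results of these data known. The rule for named genes took all members, other tubulins with a count, the called genes and up to 2 smallest-p genes of each list per comparison, and for each of the 3 most abundant members the 3 genes of nearest pattern; which of the list genes are described was chosen after their values were seen. Libraries of a group were compared by a chi-square test and none was a copy of another (lowest value per degree of freedom 5.65). The fit was tested on simulated data. Exact binomial intervals are at the 95% level.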

Additional observations from a re-analysis of the deposited data

How the results depend on the processing

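The alpha and beta tubulin sums kept their direction for age and for restricted against young mice under all alternatives tried: the alpha sum ran from -0.94 to -0.75 and from -0.75 to -0.61, and the beta sum from -0.34 to -0.14 and from -0.34 to -0.24, over the leave-one-out fits. Tuba1b is the largest part of the alpha sum, so the stability of that sum is a description only. Between the aged groups the beta sum ran from -0.16 to 0.04. Members past the threshold for age, a count given only as a description, numbered 0 with library totals and 0 to 1 with 1 library left out. For restricted against young mice, where the count is a description too, they numbered 1 with library totals and 1 to 2. Between the aged groups they stayed at 0. Genes called for age numbered 126 with no filter, 91 with DESeq2 and 2 to 91 with 1 library left out (26 as reported). Between the aged groups they numbered 50 with library totals, 224 with no filter, 159 with DESeq2 and 35 to 157 (85 as reported); for restricted against young mice, 286 with no filter and 98 to 242 (175 as reported). The cause was not tested. Same-numbered libraries had correlations of -0.028 to 0.077 (9 pairs, none over 0.1), beside -0.077 to 0.047 over 18 differently numbered pairs. Whether the numbers pair the samples is not settled by these small values, and the main fit took no pairing. With the replicate block, genes called numbered 49 for age and 133 between the aged groups. The log2 difference of Tubb3 then turned to -0.58 for age and 0.23 between the aged groups, and that of Tuba1c between the aged groups to 0.0132.

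Uncalled members turned sign as follows. Between the aged groups, Tuba1c gave 0.0134 with library totals, 0.0113 with no filter, 0.018 with TMM without mitochondrially encoded genes and 0.0029 with upper quartile scaling, and Tubb5 gave -0.004 with RLE scaling and -0.0026 with DESeq2. With 1 library left out, the ranges there were -0.21 to 0.18 for Tuba1c, -1.03 to 2.51 for Tubb3, -0.35 to 0.14 for Tubb4b, -0.0787 to 0.1256 for Tubb5 and -0.2717 to 0.0549 for Tubb6. For age they were -0.35 to 0.27 for Tubb2a and -2.91 to 0.80 for Tubb3, and for restricted against young mice -0.82 to 0.33 for Tubb3. The low counts of Tubb2a, Tubb2b and Tubb3 limit what can be said of them.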
